A study of Mus musculus with 32 samples.

Results

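Potassium channel subunit genes were followed in mouse cochlea, in the whole tissue and in 2 ribosome pull-downs, without noise and after it. Members were all genes of the deposited files whose symbol is Kcn, 1 or 2 letters and a number. The rule found 92 members among the 43947 genes listed, and all 92 were among the 39399 genes that the files of both strains list. They comprised 40 genes of voltage-gated (Kv) subunits, 15 of inward rectifiers (Kir), 14 of leak channels (K2P), 8 of calcium- or sodium-activated channels and 15 of auxiliary subunits.

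The inner ear depends on potassium more than most tissues. The stria vascularis secretes potassium into the endolymph through channels of Kcnq1 and Kcne1 and holds a high positive potential that needs the rectifier Kcnj10. Sound drives potassium into hair cells through the transduction channels. It leaves through channels at the cell base and is taken up by supporting cells and fibrocytes. Spiral ganglion neurons, which carry the signal to the brain, use Kv channels to fire brief, precisely timed spikes.

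The mice were 10 weeks old and were labelled PrestinCre/+;RiboTagHA/+ (Prestin strain) or Sox2Cre/+;RiboTagHA/+ (Sox2 strain). The series text gives Cre as CreERT2 and adds CBA to both strains. RiboTag puts an HA tag on a ribosomal protein in cells that express Cre, so both strains, controls included, carried the tagged allele. Noised mice had 2 h at 105 dB SPL and were taken 6 h or 24 h later, and control mice had no noise. Each homogenate gave total RNA of the whole cochlea (input) and an HA immunoprecipitate (IP). The Prestin groups held 3 libraries each, the Sox2 groups 2 without noise, 2 at 6 h and 3 at 24 h, which makes 32 libraries in 12 groups. The labels call the libraries biological triplicates and say nothing of pooled animals.

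Prestin, also called Slc26a5, is a gene of outer hair cells, and Sox2 marks supporting cells but also glia. In the Prestin IPs all 8 outer hair cell markers were higher than in input (median log2 fold change 2.38). In the Sox2 IPs all 8 supporting cell markers (2.78) and all 9 Schwann and satellite glia markers (2.38) were higher. Of all genes, 68.5% were called higher in the Prestin and 55.2% in the Sox2 IPs. The Sox2 IP thus holds both supporting cells and glia. Its inner hair cell markers summed to 198 to 286 TPM against 76.7 to 118 in inputs, and its outer hair cell markers to 118 to 155 against 72.0 to 98.1. By TPM, markers of other cells were also higher in the Prestin IPs. Glia markers summed to 1331 to 2272 TPM against 675 to 1218 in inputs (7 of 9 higher, median 0.78). The 3 inner hair cell markers summed to 208 to 438 against 72.3 to 94.97 (2 of 3 higher). Both counts lie near the 68.5% of all genes called higher in these IPs, and the glia median lies near that of all genes given below. A count out of 3 says little, and the inner hair cell sum of every Prestin IP lay above that of every Prestin input. The count therefore does not show that inner hair cell RNA was at the level of genes at large. Hes5 was the only marker of these 3 lists listed at 0 anywhere (in 5 libraries). In bulk RNA, fewer cells of a type and less RNA per cell cannot be told apart.

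Values are TPM, a gene's share of a library after division by its length. The length behind the deposited values was the whole span of the gene, introns included. Multiplied by that span, 97.9% to 98.9% of the values worth 1 to 40 reads per library were whole multiples of 1 unit (within 0.1%), against 11.4% to 20.3% with the exonic length. Reads recovered this way came to between 13.9 and 36.9 M (M for 1000000) per library. Within 1 gene the length does not matter, but between members it does, since the span ran from 0.999 to 313 times the exonic length. Levels of different members are therefore compared as exon-length TPM, recomputed from the reads and the exonic length, which overstates genes with long introns where reads in introns were counted.

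Several libraries stood apart. The 4 Sox2 libraries at 6 h listed 15929 to 16966 genes and only 1562 to 2281 values of 1 to 40 reads, although they held 30.0 to 36.9 M reads. Sox2 control IP replicate 4 was like them, with 17395 genes and 1706 such values. In the 6 h libraries 23 to 28 members were at 0, against 6 to 19 in all other libraries. In homogenate 2 of the Prestin 6 h group, 12 of the 45 members at 1 TPM or more in the input (26.7%) and 15 of 55 in the IP (27.3%) exceeded 3 times both other libraries of the group, against 5.51% and 6.62% of all genes. The 2 Sox2 control IPs also differed, with 14 of 56 members over 3 times higher in replicate 1 (13.2% of all genes) and 5 of 48 over 3 times higher in replicate 4 (7.91%). In Prestin control IP replicate 1, 9 of 42 members were over 3 times lower than in both other libraries (7.60% of all genes).

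Of the 92 members, 70 reached 1 TPM in at least 1 library and 22 never did. Only 20 were at 1 TPM or more in all 32 libraries. By family, 31 of 40 Kv genes, 13 of 15 Kir, 10 of 14 K2P, 5 of 8 calcium- or sodium-activated and 11 of 15 auxiliary genes reached 1 TPM. The sum over members was 694 to 1073 TPM in Prestin inputs, 1404 to 3453 in Prestin IPs, 707 to 904 in Sox2 inputs and 1088 to 1916 in Sox2 IPs. Kcna1 supplied a large part of it in the Prestin libraries, but only 53.1 to 143 TPM in Sox2 inputs.

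**Figure D1:**
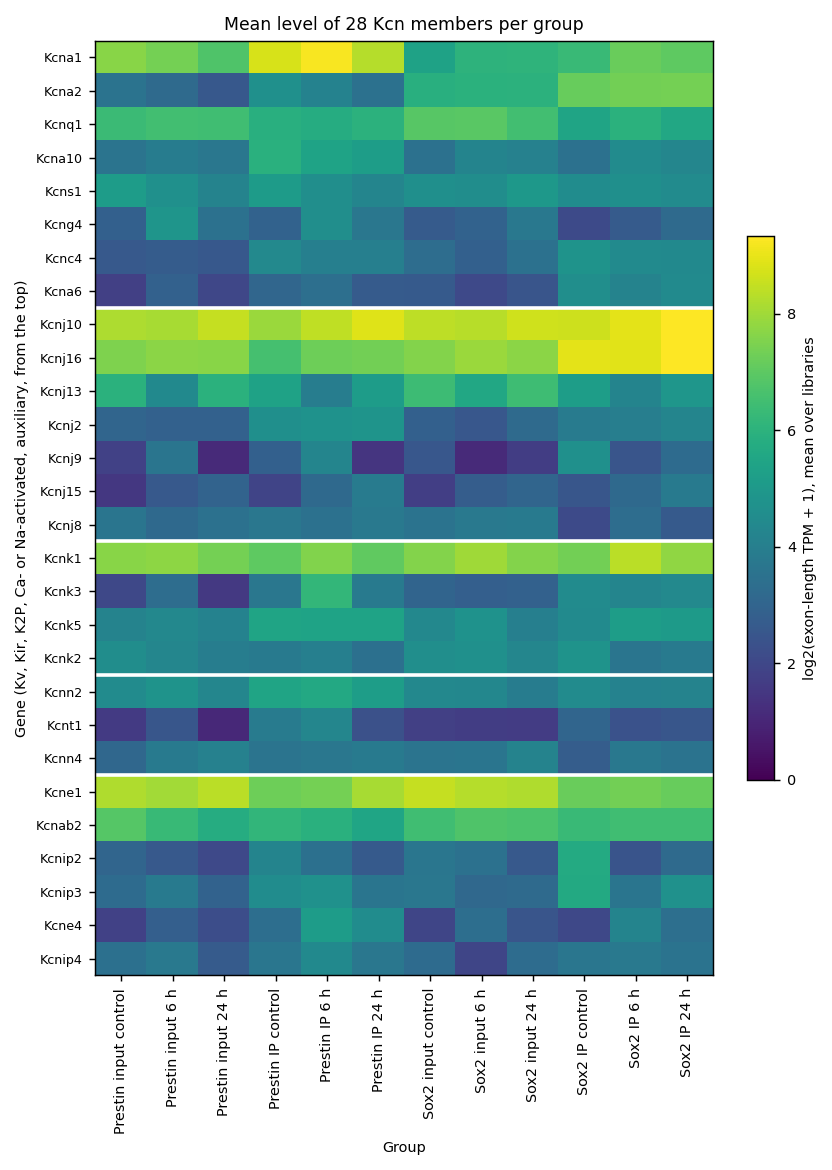
Mean exon-length TPM as log2(value + 1) (colour) of 28 of the 45 members with the highest group means (vertical axis, in the order Kv, Kir, K2P, calcium- or sodium-activated and auxiliary, split by white lines) in the 12 groups (horizontal axis, 2 or 3 libraries each). Kcna1, Kcnj10, Kcnj16, Kcne1 and Kcnk1 are bright, and Kcna2 is brightest in the Sox2 columns.

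On the exon-length scale the members with the highest group means were Kcnj10 with 640 and Kcnj16 with 630 (both Sox2 IP at 24 h), Kcna1 with 596 (Prestin IP at 6 h, 393 without homogenate 2), Kcne1 with 365 (Sox2 control input) and Kcnk1 with 330 (Sox2 IP at 6 h). Kcna2 reached 164 (Sox2 IP at 24 h), and Kcnab2 followed Kcne1 among the auxiliary genes with 115 in Prestin control inputs. Calcium- and sodium-activated members were lower, and Kcnn2 led them with 48.8 in Prestin IPs at 6 h.

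The choice of length moved several members far in the order. In Prestin control inputs Kcnq1 was the 30th member by deposited TPM and the 8th by exon-length TPM, at 2.11 ± 0.28 and 80.0 ± 11 (SD, n = 3). The Kcnq1 gene spans chr7:143106362-143427042 on the plus strand of GRCm38, 78.3 times its exonic length in GENCODE M21. Kcne1, its partner in the channel, has a ratio of 4.20. Kcnq1 also shares exonic bases with Kcnq1ot1 on the other strand, and use of strand in the counting is not given in the sources used here. This limit holds for all Kcnq1 values of this text. Kcnma1 moved from 60 to 36, Kcnn2 from 41 to 15 and Kcnk2 from 34 to 14, while the compact gene Kcne4 moved from 19 to 49. Deposited levels of Kcnq1 and Kcne1 therefore cannot be read as a ratio of subunits.

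**Figure D2:**
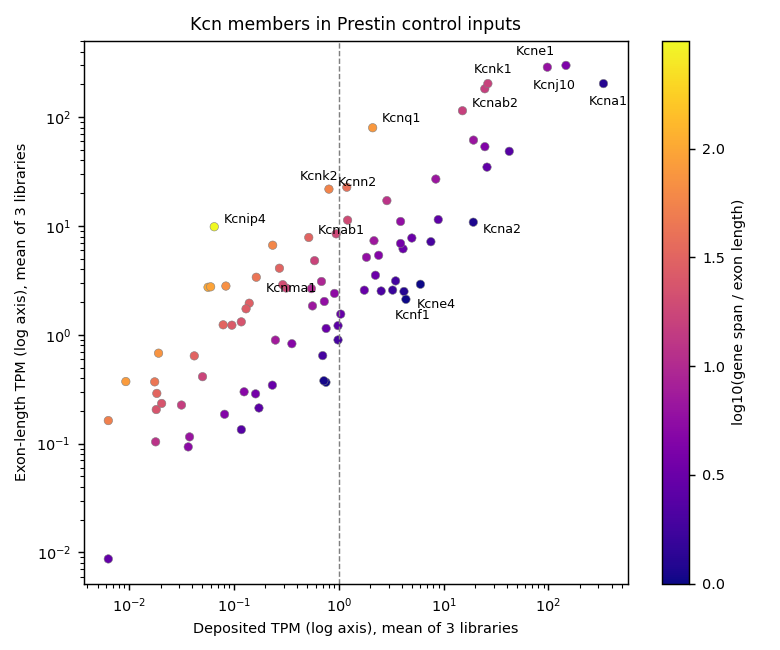
Deposited TPM (horizontal, log axis, dashed line at 1) against exon-length TPM (vertical, log axis) of each member in the 3 Prestin control inputs, as means, coloured by log10 of gene span over exonic length. Genes of large span such as Kcnma1 and Kcnip4 lie left of the line although their exon-length level is higher than that of some members to its right.

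The 22 members under 1 TPM everywhere were Kcnab1, Kcnb2, Kcnc2, Kcng2, Kcng3, Kcnh5, Kcnh7, Kcnh8, Kcnip4, Kcnj1, Kcnj6, Kcnk13, Kcnk15, Kcnk16, Kcnk18, Kcnma1, Kcnmb2, Kcnmb3, Kcnq5, Kcnt2, Kcnu1 and Kcnv2. By the rule they count as not expressed, yet 12 of them held 100 reads or more in some library, 14 reached 1 exon-length TPM, and 8 had a median of 50 reads or more over the inputs. Their median span was 222484 bases, against 21573 for the other 70, while median exonic lengths were 3897.5 and 4376.5. Only 5 had 10 reads or fewer in every library (Kcng3, Kcnj1, Kcnk16, Kcnmb3 and Kcnv2), and Kcnk16 had none at all. Kcnma1, the pore of the BK channel of hair cells, is the clearest case. It held 239 to 808 reads in every library but at most 0.484 TPM.

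Kcnq1 and Kcne1 form the channel through which marginal cells of the stria secrete potassium. Kcnq1 stood at 2.08, 2.40 and 1.83 TPM in Prestin control inputs and at 1.77, 2.20 and 1.82 in their IPs, which overlapped. In the Sox2 strain its controls held 3.18 and 3.12 in inputs and 1.31 and 1.51 in IPs, with no overlap. Kcne1 stood at 140, 173 and 128 TPM in Prestin control inputs and 73.3, 139 and 73.7 in IPs. In Sox2 controls it held 186 and 178 TPM in inputs and 79.1 and 100.4 in IPs. Both genes of the channel were thus lower in the Sox2 IP than in its input, in 7 of 7 homogenates each.

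Kcnj10, at chr1:172341210-172374085 on the plus strand, encodes the rectifier of strial intermediate cells, satellite glia and supporting cells, and Kcnj16 encodes a subunit that pairs with it. Kcnj10 stood at 100.3, 108 and 84.4 TPM in Prestin control inputs and at 48.5, 162 and 99.4 in IPs. In the Sox2 controls it held 105 and 124 in inputs and 189 and 148 in IPs, and at 24 h 134, 142 and 141 in inputs and 238, 312 and 305 in IPs. Kcnj16 separated the pull-downs more: Prestin control IPs held 12.6, 21.2 and 14 TPM against 25.4, 26.4 and 22.4 in inputs, whereas Sox2 control IPs held 112 and 55.3 against 25.6 and 27.2. Sox2 IPs of all 3 conditions lay above their inputs in 7 of 7 homogenates for both genes, with no overlap of groups. This is by TPM, by which 55.2% of all genes were called higher in these IPs. After the scaling described below, Kcnj10 was level with the median gene, while Kcnj16 stayed higher.

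Hair cell members were few and low in the whole cochlea. Kcna10, a Kv gene of hair cells, held 3.50, 4.79 and 3.37 TPM in Prestin control inputs and 40.8, 16 and 20.4 in IPs, without overlap. Kcnn2, the SK channel opened by the cholinergic efferents, held 0.852, 0.879 and 0.686 TPM in these inputs and 2.24, 1.84 and 1.82 in the IPs.

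Kcna1 and Kcna2, pore subunits of axonal Kv channels, differed between the strains in their inputs. In the 9 Prestin inputs Kcna1 ran from 161 to 385 TPM (median 255) and in the 7 Sox2 inputs from 53.1 to 143 (median 97.1), 2.63 times lower by the medians. Kcna2 ran the other way, from 7.74 to 20.3 TPM (median 13.3) in Prestin and from 68.9 to 139 (median 106) in Sox2 inputs, 7.92 times higher. They were the only 2 of 45 tested members whose inputs did not overlap between strains, and 842 of 14204 genes (5.93%) did not. They were singled out after their values were seen and no test was made. Every library held at least 1307 and 466 reads of them, so depth does not limit these values. Strain, files and library preparation cannot be told apart here. In both strains the IP lay above its input in every homogenate, Kcna2 for example at 399 and 242 TPM in Sox2 control IPs against 139 and 68.9.

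Kcnf1, a Kv subunit that is silent alone and alters other Kv subunits, lies at chr12:17172100-17176888 on the minus strand in 1 exon block. It held 4.96, 4.05 and 4.11 TPM in Prestin control inputs (71 to 91 reads) and 8.48 and 4.98 in Sox2 control inputs. Its IPs scattered: 8.04, 11.5 and 0 in Prestin controls, 13 and 21.8 in Sox2 controls, and 14.4, 0.862 and 6.60 in Sox2 IPs at 24 h. Kcna7, a muscle Kv gene at chr7:45405653-45409763 on the plus strand, held 1.52, 0.449 and 0.135 TPM in Prestin control inputs and 16.9, 15 and 6.10 in IPs, from at most 92 reads. Its highest inputs were the Sox2 24 h replicates 1 and 2, with 5.61 and 10.7 TPM. The same 2 libraries held 1535 and 2196 TPM over 10 skeletal muscle markers, against 17.0 to 68.4 in the other Sox2 inputs. In the Prestin control IPs these markers stood at 47.9, 34.5 and 20.1 TPM, below the 86.3, 59.3 and 26 of their inputs.

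The first tests compared each IP with its input over the 3 conditions, to show which channel transcripts a pull-down holds more or less of than its cochlea. Differences are of log2(TPM + 1), so those of low genes are understated. Genes entered a test with 1 TPM in at least 3 Prestin or 2 Sox2 libraries. In the Prestin IPs 34 of the 53 tested members were higher and 1 was lower, with a median of 0.69. Of all genes 76.1% were called, 68.5% higher and 7.68% lower, with a median of 0.82. The members' count lies near that of the genes at large. Median-of-ratios scaling, which moved the median of all genes to 0.05, left 11 members higher and 13 lower (33.1% and 32% of all genes). On the recovered reads 17 of 81 members were higher and 15 lower (61.5% of all genes called, 31.6% higher and 29.9% lower).

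Kcnk6, a K2P gene that reached 3.06 to 14.4 TPM in IPs and 0.419 to 1.48 in inputs, rose by 2.21 ± 0.20 (SE; adjusted p = 1.26e-07), and by 1.94 on the reads. Kcna10 rose by 1.90 ± 0.16 (adjusted p = 6.28e-08), and by 1.04 on the reads. Both were above input in every homogenate. Kcne4, an inhibitory auxiliary subunit, gave 2.22 ± 0.48, Kcnj2 2.01 ± 0.26 and Kcna1 1.77 ± 0.18. Kcna7 gave 1.73 ± 0.28 and Kcnk3, an acid-sensitive leak channel, 1.63 ± 0.50 (adjusted p = 0.00832), but on the reads neither passed (adjusted p = 0.0547 and 0.0956), nor did Kcnk3 under median-of-ratios scaling (0.0767). Kcnn2 gave 0.69 ± 0.08 (adjusted p = 1.05e-06), but 0.17 on the reads (adjusted p = 0.108) and 0.098 under median-of-ratios scaling (adjusted p = 0.283). Of the role lists, 3 of 3 tested hair cell members and 6 of 7 neuron and axon members rose, where 68.5% of all genes did. Under median-of-ratios scaling 2 of 3 and 3 of 7 rose and 1 of the 7 fell, where 33.1% of all genes rose and 32% fell. The striated muscle list likewise had 2 of 3 tested members higher. In the endolymph and glia lists all 4 tested members fell. In the mural cell, immune cell and silent Kv lists none rose and 1 each fell.

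The 4 members of the endolymph list are Kcnq1, Kcne1, Kcnj10 and Kcnj13, of which 1 was called lower and 1 higher on log2(TPM + 1) without scaling. Kcne1 was the 1 member called lower, by 0.31 ± 0.12 on the log2 scale (adjusted p = 0.0335). Kcnq1 at -0.15 (adjusted p = 0.0723) and Kcnj13, the rectifier of transporting epithelia, at -0.31 (adjusted p = 0.0807) did not pass. On the recovered reads all 3 passed: Kcne1 fell by 1.39, Kcnj13 by 1.42 and Kcnq1 by 1.31 ± 0.08 (adjusted p = 1.48e-10). Kcnj10 was higher by 0.42 ± 0.17 (adjusted p = 0.0381). It was called lower under median-of-ratios scaling (-0.65, adjusted p = 0.00295) and on the reads (-0.66, adjusted p = 8.24e-04). In the controls alone it stood at -0.076 (adjusted p = 0.886). No direction that holds in all of these fits can be given for it. Under median-of-ratios scaling all 4 members of the list were called lower, where 32% of all genes were.

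In the Sox2 IPs 29 of 59 tested members were higher and 3 lower than input, with a median of 0.63. Of all genes 57.9% were called, 55.2% higher and 2.72% lower, with a median of 0.65. Median-of-ratios scaling left 12 higher and 12 lower (18.9% and 19% of all genes). On the reads 14 of 86 members were higher and 16 lower (34.3% of all genes called, 16.8% higher and 17.6% lower), and in the controls alone 12 members were called (30.1% of all genes).

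Kcna5, a Kv gene of vessels, differed by 2.20 ± 0.50 (adjusted p = 0.00332), with 0 to 169 reads in the Sox2 inputs. Under median-of-ratios scaling it gave 1.49 (adjusted p = 0.0571). Kcna6 differed by 2.10 ± 0.26 (adjusted p = 5.35e-05). Kcna2 rose by 1.72 ± 0.21 (adjusted p = 4.85e-05), Kcnj16 by 1.59 ± 0.15 (adjusted p = 1.13e-05), and Kcnc4 by 1.5, and these 3 were also higher on the reads, by 0.80, 0.71 and 0.95. Kcnj9 (1.86) and Kcnj2 (1.41) rose too but not on the reads (adjusted p = 0.0859 and 0.0913), whereas Kcnk6 (1.79) did. Kcnj10 rose by 0.85 ± 0.11 (adjusted p = 8.81e-05) but stood at -0.059 on the reads and -0.058 under median-of-ratios scaling, that is, level with the median gene. The 3 members that fell were the other 3 of the endolymph list: Kcnj13 by 1.05 ± 0.22, Kcne1 by 0.78 ± 0.10 and Kcnq1 by 0.53 ± 0.10 (adjusted p = 0.00188, 6.85e-05 and 0.00110). Melanocyte markers, from the intermediate cells of the stria, were also lower in these IPs (4 of 5 tested fell and 1 rose, 85.5 to 201 TPM summed against 275 to 484 in inputs, Tyrp1 at 0 in 16 of the 32 libraries). Markers of the marginal cells, where Kcnq1 and Kcne1 act, were higher by their sum (58.2 to 75.1 TPM against 27.4 to 39.3), with 1 of 4 tested called higher and 1 lower. The part of either in the result was not tested. Kcnf1 at 1.06 (adjusted p = 0.0731, and 0.0475 with each homogenate as a block), Kcna10 at 0.30 and Kcna7 at 0.17 did not pass.

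The difference of both enrichments was then tested directly, as an interaction. It passed for 14 of 64 members, 9 with the higher value of IP against input in Prestin and 5 in Sox2, where 21.6% of all genes passed (14% and 7.62%). Kcnj16 differed most firmly, by -1.83 (adjusted p = 1.73e-06), toward the Sox2 IP. Kcna5 by -1.67 lay on the same side. Kcna10 by 1.61 (adjusted p = 0.00232) and Kcnn2 by 0.52 (adjusted p = 0.00186) lay toward the Prestin IP, both of the hair cell list. On the reads the differences of Kcnj16 and Kcna10 were -2.0 and 1.69. In the controls alone 1 member passed (2.27% of all genes), and neither Kcnj16 nor Kcna10 did.

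**Figure D3:**
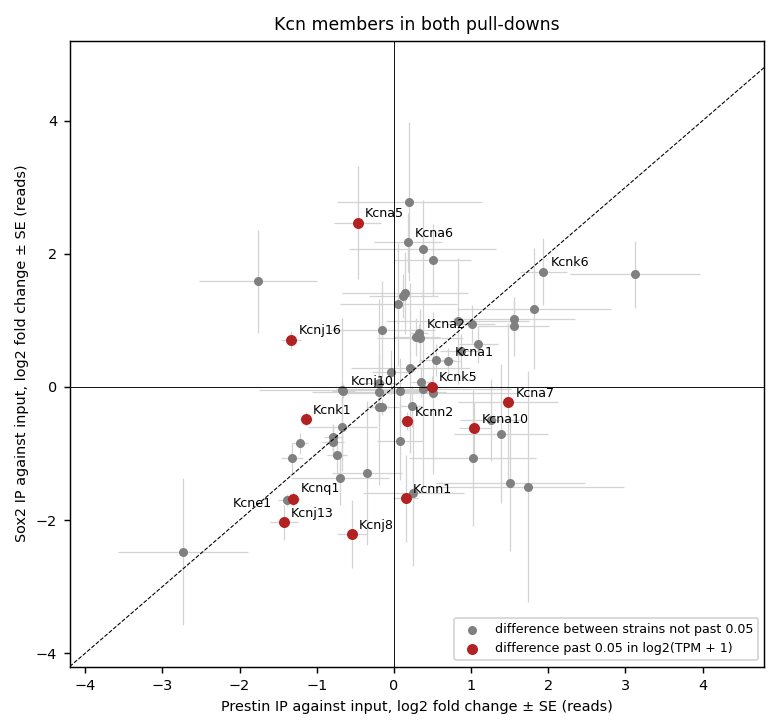
Log2 fold change of IP against input on the recovered reads, with SE, for members fitted in both strains: Prestin horizontally, Sox2 vertically, dashed line where both are equal, red where the difference passed 0.05 on log2(TPM + 1). Kcna10 lies right of the line, Kcnj16 far above it, and Kcnq1 and Kcne1 below 0 in both.

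Noise was first compared in the whole cochlea, over the 16 inputs with strain as a covariate. At 6 h 2 of 45 tested members were higher and 2 lower than in controls, where 8.54% of all genes were called (3.83% higher and 4.71% lower). The 2 that fell, Kcnf1 and Kcnj13, and the 2 that rose, Kcnj15 and Kcne4, are shown by library in the plot of TPM for these 4 genes. No other member of the endolymph, glia, hair cell or neuron lists passed.

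**Figure D4:**
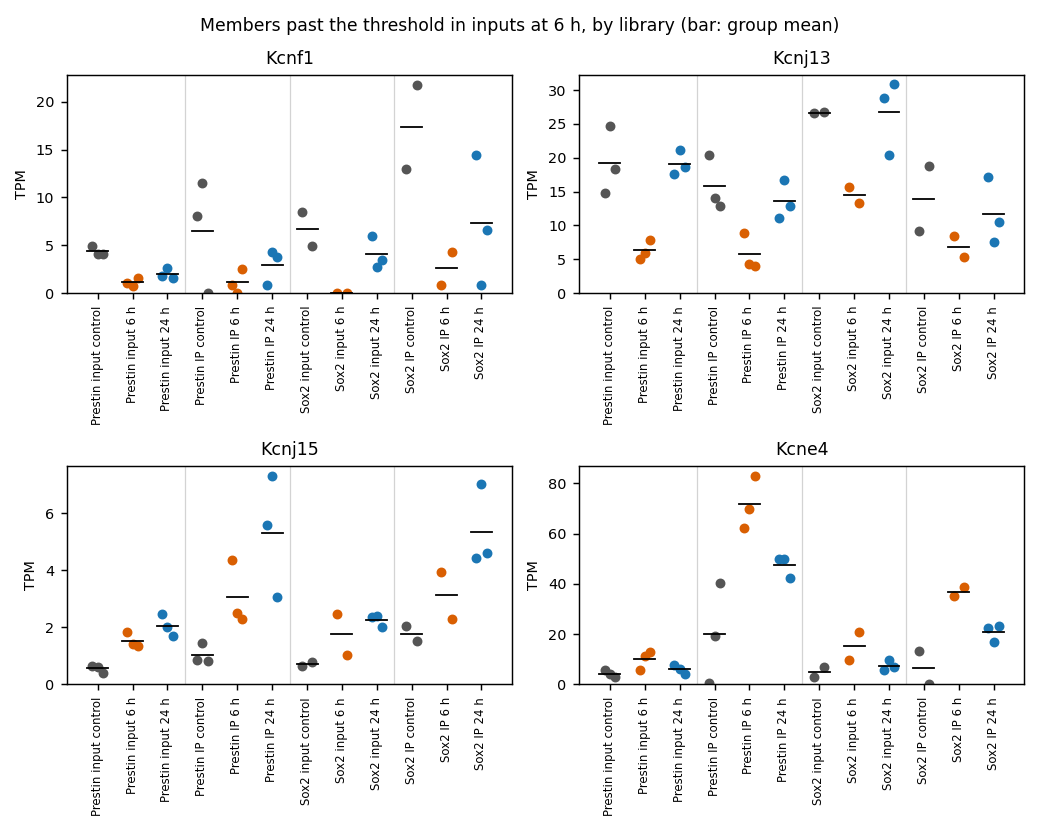
TPM (vertical, linear) of Kcnf1, Kcnj13, Kcnj15 and Kcne4 in each library (points) of the 12 groups, with group means as bars, grey without noise, orange at 6 h and blue at 24 h. Kcnf1 and Kcnj13 are low at 6 h in the inputs, while Kcnj15 and Kcne4 are higher after noise than in controls in all 4 kinds of sample by their means.

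Kcnf1 held 1.10, 0.702 and 1.63 TPM in Prestin inputs at 6 h and 1.79, 2.60 and 1.59 at 24 h, all below the controls given above. The Sox2 inputs at 6 h held 0.0349 and 0, which is 1 read and none, and at 24 h 5.97, 2.74 and 3.50. It fell by 1.96 ± 0.32 at 6 h (adjusted p = 0.00153), with no overlap. Those Sox2 libraries list few low values, but in the Prestin inputs alone it still fell by 1.35 (adjusted p = 0.0100). At 24 h against 6 h it rose by 1.26 ± 0.30 over both strains (adjusted p = 0.0119), while in Prestin alone the value was 0.49 (adjusted p = 0.147).

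Kcnj13, at chr1:87386363-87394729 on the minus strand, held 14.8, 24.7 and 18.3 TPM in Prestin control inputs, 5.11, 5.90 and 7.92 at 6 h and 17.5, 21.2 and 18.6 at 24 h. In Sox2 inputs it held 26.6 and 26.7, then 15.6 and 13.3, then 28.8, 20.5 and 30.9. Within each strain the 6 h libraries lay below all others. It fell by 1.21 ± 0.17 at 6 h (adjusted p = 5.63e-04) and rose by 1.19 ± 0.17 from 6 h to 24 h (adjusted p = 2.87e-04). The Kcnj13 gene shares exonic bases with Gigyf2 on the other strand, and use of strand in the counting is not given in the sources used here. In the Sox2 inputs alone the fall was 0.84 on the log2 scale and did not pass (adjusted p = 0.128).

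Kcnj15, another inward rectifier, held 0.660, 0.616 and 0.409 TPM in Prestin control inputs, 1.82, 1.43 and 1.35 at 6 h and 2.46, 2.02 and 1.70 at 24 h. In Sox2 inputs it held 0.649 and 0.797, then 2.47 and 1.05, then 2.37, 2.41 and 2.01. It was higher by 0.67 ± 0.13 at 6 h (adjusted p = 0.00626) and by 0.95 ± 0.13 at 24 h (adjusted p = 4.16e-04), without overlap at either time. Kcne4 held 5.66, 4.02 and 2.88 TPM in Prestin control inputs and 5.61, 11.5 and 12.9 at 6 h, and 3.07 and 6.77 and then 9.86 and 21 in Sox2. It rose by 1.21 ± 0.27 (adjusted p = 0.0133), with some overlap, and neither strain alone passed (adjusted p = 0.125 and 0.176).

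Since these 4 members changed at 6 h, the RefSeq sequence of the 250 bases before the start of each (GRCm38.p6) was read. Capitals mark the only match to 5 short motifs searched on both strands. That of Kcne4 holds an annotated exon of the gene and is not shown.
Kcnj13, chr1:87394730-87394979, minus strand: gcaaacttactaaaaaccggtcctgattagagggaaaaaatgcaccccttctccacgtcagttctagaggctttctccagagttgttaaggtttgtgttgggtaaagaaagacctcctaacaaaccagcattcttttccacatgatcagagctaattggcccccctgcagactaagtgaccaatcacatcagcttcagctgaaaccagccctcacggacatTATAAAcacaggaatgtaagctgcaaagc
Kcnf1, chr12:17176889-17177138, minus strand: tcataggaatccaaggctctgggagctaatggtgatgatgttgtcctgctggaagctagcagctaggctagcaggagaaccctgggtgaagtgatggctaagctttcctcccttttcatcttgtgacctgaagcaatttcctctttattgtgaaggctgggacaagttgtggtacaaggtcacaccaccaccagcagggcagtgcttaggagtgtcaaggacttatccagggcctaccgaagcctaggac
Kcnj15, chr16:95257308-95257557, plus strand: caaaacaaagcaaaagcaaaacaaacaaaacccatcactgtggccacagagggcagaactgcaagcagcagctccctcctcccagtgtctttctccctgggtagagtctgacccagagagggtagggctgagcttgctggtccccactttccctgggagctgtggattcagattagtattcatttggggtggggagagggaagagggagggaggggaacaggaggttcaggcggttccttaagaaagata

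The TATA motif (TATAAA) starts 29 bases before the Kcnj13 start and is in 12.37% of the 32851 promoters of the table. The AP-1 motif (TGACTCA, in 4.463% of promoters), the CRE (TGACGTCA, 1.546%), the E-box (CACGTG, 6.021%) and the STAT motif (TTCNNNGAA, 7.02%) are in none of the 3 windows, and the E-box is in that of Kcne4. No motif of the 5 contains another. Over 67 members with an entry, AP-1 was found before Kcnip3 and Kcnk2, TATA before Kcnj13, Kcnj16 and Kcnj9, the E-box before 5 members, the STAT motif before 7 and the CRE before none. These matches describe the letters only.

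At 24 h 1 of 45 members (Kcnj15) was higher and 1 lower than in control inputs, where 4.44% of all genes were called (3.78% higher and 0.662% lower). The lower one, Kcnip2, an auxiliary subunit of Kcnd channels, fell by 0.74 ± 0.19 (adjusted p = 0.0407) and did not pass on the reads (adjusted p = 0.0514) or without any 1 of 9 of the 11 libraries compared. In the Prestin inputs alone 7 members passed at 24 h (5.22% of all genes). Kcna1 fell there by 0.91, Kcna2 by 1.07, Kcnab2 by 0.98, Kcnf1 by 0.85 and Kcns1, a silent Kv subunit, by 0.97 on the log2 scale, and Kcnj15 rose by 0.97 and Kcnn4, the calcium-activated channel of blood and immune cells, by 0.93. Kcna1 for example held 385, 267 and 353 TPM in those controls and 162, 161 and 206 at 24 h. The 10 neuron markers of the same inputs summed to 1012 to 1539 TPM in controls and 599 to 640 at 24 h, with Prph at 0 in 1 of the 32 libraries and no other marker at 0. The 9 macrophage markers summed to 152 to 173 TPM in these controls and 387 to 414 at 24 h, none at 0 throughout a group. The part of either in the result was not tested. In the Sox2 inputs alone no member passed at 24 h, nor did any gene (0% of 15371), and the neuron markers ran from 577 to 1092 and from 856 to 1023.

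Between the times 3 of 45 members were higher at 24 h than at 6 h and 1 lower (16.1% of all genes called, 12.6% higher and 3.48% lower). Besides Kcnj13 and Kcnf1, Kcnj10 rose by 0.42 ± 0.09 (adjusted p = 0.00618). Its Prestin inputs went from 98.1, 85.5 and 88.2 TPM to 126, 123 and 123. Kcnk1, a K2P gene of glia and epithelia, fell by 0.33 (adjusted p = 0.0130). Of the genes of potassium circulation outside the family (pumps, cotransporters, chloride channels and connexins), 4 of 12 tested rose and 1 fell between the times, and 3 fell at 6 h, where 4.71% of all genes did.

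In the Prestin IPs at 6 h none of 50 tested members was higher and 3 were lower than in control IPs, where 5.63% of all genes were called (0.856% higher and 4.77% lower). Kcna7 held 3.08, 0 and 1.73 TPM against 16.9, 15 and 6.10 and fell by 2.5 ± 0.55 (adjusted p = 0.0445). Kcnj14, an inward rectifier, held 0.730, 1.91 and 0.428 against 3.54, 4.14 and 6.86 and fell by 1.56 ± 0.33 (adjusted p = 0.0407). Kcnj13 held 8.84, 4.30 and 4.02 against 20.4, 14.1 and 12.8 and fell by 1.36 ± 0.31 (adjusted p = 0.0457). The groups of all 3 did not overlap, yet no member was called when any 1 library was left out, nor under median-of-ratios scaling. On the reads the only member called was Kcnk1, which rose (2.03% of all genes called).

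At 24 h 1 of 50 members was higher and 3 were lower in the Prestin IPs, where 6.23% of all genes were called (1.1% higher and 5.14% lower). Kcnj15 held 5.6, 7.32 and 3.05 TPM against 0.866, 1.45 and 0.831 and rose by 1.58 ± 0.33 (adjusted p = 0.0348), as in the inputs. Kcnj14 held 0.235, 0.332 and 0.483 and fell by 2.08 ± 0.33 (adjusted p = 0.0218). Kcna2 held 21.8, 22.6 and 23.7 against 48.1, 46.7 and 68.4 and fell by 1.20 ± 0.24 (adjusted p = 0.0321), and Kcns1 fell by 0.84 ± 0.20 (adjusted p = 0.0492). Without any 1 of the 24 h libraries, or without control replicate 3, no member was called, and without control replicate 1 there was 1. On the reads Kcna2, Kcnj15, Kcne1 (1.12, adjusted p = 0.0409) and Kcnma1 (-1.15, adjusted p = 0.0279) were called (4.93% of all genes). Kcnma1, too low in TPM to be tested, held 465, 400 and 475 reads in control IPs and 303, 245 and 267 at 24 h.

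The 8 outer hair cell markers summed to 803 to 2195 TPM in Prestin control IPs, to 504 to 818 at 6 h and to 766 to 883 at 24 h, none at 0, and the neuron markers to 1323 to 2197, 1078 to 1391 and 801 to 1156. Their part in the results was not tested. Neither Kcna10 nor any other hair cell member tested on log2(TPM + 1) was called at either time, whereas Kcnma1, not tested on that scale, was called on the reads. Between 6 h and 24 h no member passed in Prestin IPs, where 0.102% of all genes were called. At an unadjusted p under 0.05 stood 8 of 50 members, and 7.95% of all genes. Both times share the control IPs, so their values are given side by side only.

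In the Sox2 IPs no member passed in limma at 6 h (0.694% of all genes called), at 24 h (0.188%) or between the times (0.506%), out of 59 tested. At an unadjusted p under 0.05 stood 17, 14 and 5 of them, and 18.1%, 11.5% and 12.3% of all genes. On the reads 3 members were called at 6 h, among them Kcnk1, higher by 1.14, and Kcng1, lower (1.61% of all genes called), and no member was called at 24 h or between the times. Kcng1 had 336 and 331 reads in the control IPs and 0 and 1 in the 6 h IPs. The Sox2 6 h libraries list few low values, and both 6 h inputs had 0 reads of Kcng1, against 141 and 86 in control inputs. Kcnj15 held 2.04 and 1.53 TPM in controls, 3.95 and 2.31 at 6 h and 4.45, 7.02 and 4.60 at 24 h, which did not overlap the controls. Kcne4 held 13.2 and 0.0998 TPM in controls, 35.2 and 38.7 at 6 h and 22.4, 17.1 and 23.3 at 24 h. With 2 libraries in 2 of the 3 groups, and the control IPs unlike each other, the precision here is low.

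**Figure D5:**
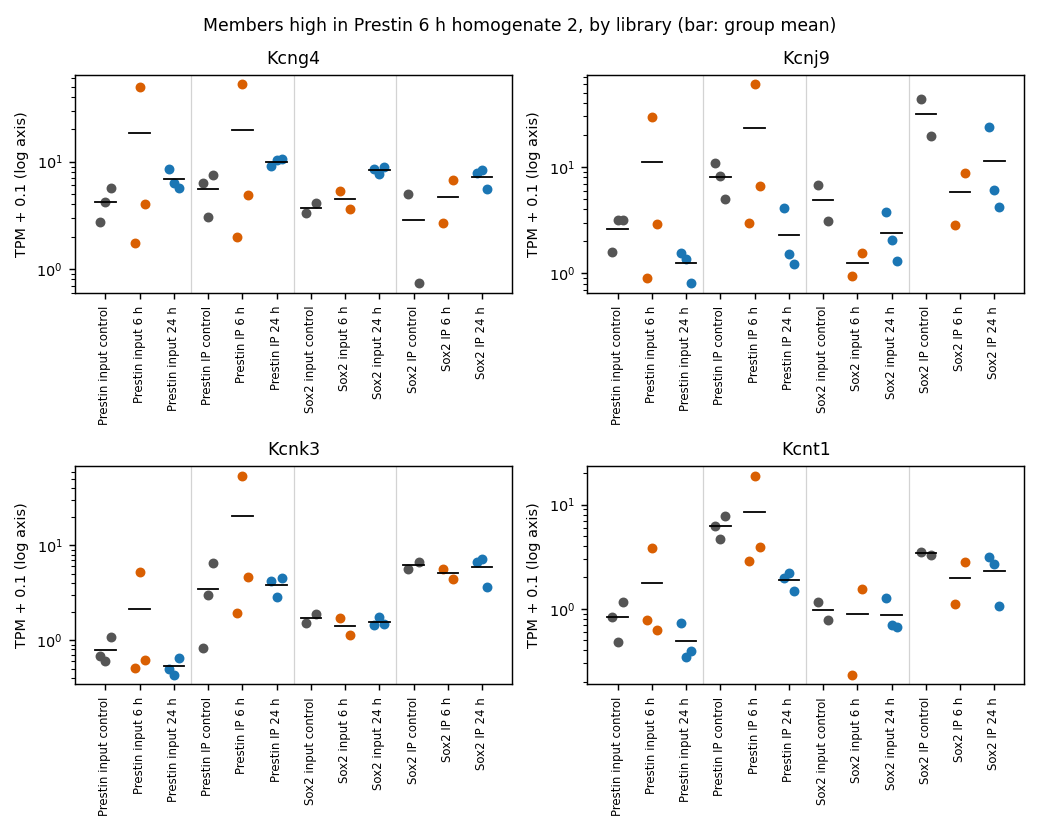
TPM + 0.1 (vertical, log axis) of Kcng4, Kcnj9, Kcnk3 and Kcnt1 in each library (points) of the 12 groups, with group means as bars. In each panel 1 point of the Prestin 6 h input and 1 of the Prestin 6 h IP, both from homogenate 2, lie far above their groups.

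The members high in Prestin 6 h homogenate 2 had no role list in common. Kcng4, a silent Kv subunit, held 1.64, 49.4 and 3.93 TPM in the inputs of that group and 1.88, 52.4 and 4.78 in its IPs. Kcnj9, a G-protein-gated rectifier of neurons, held 0.803, 29.8 and 2.81 and then 2.87, 59.9 and 6.52. Kcnk3 held 0.410, 5.10 and 0.525 and then 1.81, 54.1 and 4.58, the latter from 3798 reads. Both the input and the IP made from that homogenate carried the excess, on 10 members in common. Neuron markers there summed to 985 TPM in input and 1391 in IP, the highest of groups that ran from 848 and from 1078, and muscle markers to 22.7 and 13.9, the lowest of their groups. The neuron and axon members of the family summed to 564 TPM in that input against 341 and 365 in the others, and to 2673 in the IP against 1043 and 1007. Their part in the excess was not tested. Without that homogenate Kcnk3 stayed higher in the Prestin IPs, by 1.43 (adjusted p = 3.12e-04).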

How the data were processed

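Gene expression was measured by RNA-seq in 32 libraries from 16 homogenates. The deposited values are TPM per gene and library; per the submitters' processing notes, TopHat and GRCm38 were used. The sources used here do not give the counting tool or its use of strand. The kit was directional, per the labels' protocols. GENCODE M21 gave span and exons. Reads were recovered as TPM times gene end minus start over each library's unit; 98.6% to 98.9% of all values came out within 0.05 of a whole read. Limma 3.58.1 in R 4.3.3 (lmFit, eBayes with trend) was run on log2(TPM + 1), Benjamini-Hochberg over all genes tested, threshold 0.05, with filters of 1 TPM in at least 3 (Prestin), 2 (Sox2) or 5 (inputs) libraries. Each IP was compared with input as the mean over 3 conditions. The script was tested on simulated data. Limma voom on the recovered reads was an alternative chosen after seeing the data, run on genes with 10 reads or more. The other alternatives were median-of-ratios scaling, 0.1 as pseudocount, no filter, blocks, single strains, controls alone and each library or homogenate left out.

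IP and input of a homogenate pair by design (their deviations from group means correlated with r from 0.049 to 0.415 across genes). Replicate numbers do not pair conditions (r from -0.116 to 0.101 over 24 pairs). P-values measure the spread between libraries as labelled. Per comparison the text names, of members past the threshold at a mean of 1 TPM or more, up to 8 that rose most and 8 that fell most, and Kcnq1, Kcnj10, Kcnf1, Kcna7 and the endolymph and hair cell lists; for levels, the highest members per family and the role lists. Members, lists and rules were chosen with earlier results of these data known. Of the 92 members, 28 share exonic bases with another gene, 26 of them on the opposite strand. Files were read with pandas 2.3.3 and numpy 2.4.6 in python 3.11.15, and figures drawn with matplotlib 3.10.9. Results for a few genes are not reported here, though these genes stay in the fits and counts.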

Additional observations from a re-analysis of the deposited data

Results flagged for a closer look

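For the members below the value of IP against input differed between the strains by the test of the difference itself (limma, Benjamini-Hochberg over all genes), given as Prestin minus Sox2 on the log2(TPM + 1) scale. The higher value lay in the Sox2 IP for Kcnj16 (-1.83, adjusted p = 1.73e-06), Kcna5 (-1.67, 0.0225), Kcne3 (-0.91, 0.0245) and Kcnk1 (-0.48, 0.0268). It lay in the Prestin IP for Kcna10 (1.61, 0.00232), Kcna7 (1.56, 0.0370), Kcnj8 (1.39, 0.0156), Kcnn1 (0.91, 0.0455), Kcnj13 (0.74, 0.0487), Kcnk5 (0.55, 0.00838), Kcnn2 (0.52, 0.00186) and Kcnq1 (0.38, 0.0117). For Kcnj13 and Kcnq1 this is a smaller fall, not an enrichment. Both lay below input in the Sox2 IP (-1.05 and -0.53). In the Prestin IP their values were also below 0, as given above. For other members too the difference need not be an enrichment. On the reads Kcnn2 lay below input in the Sox2 IP (-0.51, adjusted p = 0.00480) and did not pass in the Prestin IP. Under median-of-ratios scaling all 4 members of the glia list, Kcnk1 among them, were called lower in the Prestin IP. In the Sox2 IP 1 of the 4 (Kcnj16) was called higher and 2, Kcnk1 among them, lower.

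Without the Sox2 6 h libraries, left out after seeing the data, 12 members passed. Kcna7 (1.27, adjusted p = 0.144), Kcne3 (-0.65, 0.157), Kcnj13 (0.76, 0.0726), Kcnk1 (-0.33, 0.182) and Kcnn1 (0.49, 0.285) then missed the threshold, while Kcnj16 stood at -1.97 and Kcna10 at 1.71. With each homogenate as a block Kcnj13 (adjusted p = 0.0587) and Kcnn1 (0.0513) missed it and Kcne1 (0.47, 0.0210) passed. Under median-of-ratios scaling Kcna7 (0.0913), Kcnj13 (0.111), Kcnk5 (0.0530) and Kcnn1 (0.0920) missed it. On the recovered reads Kcna7 (adjusted p = 0.397), Kcnj13 (0.185) and Kcnk5 (0.0585) did not pass. Leaving out Prestin 24 h homogenate 3 left 9 members called. This count and the 12 above are given without the share of all genes, so they do not show how members moved against genes at large. In the controls alone Kcnj16 stood at -2.17 (adjusted p = 0.0503) and Kcna10 at 2.40 (0.138).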

How the results depend on the processing

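Counts are of members called. Where no share of all genes is given for a setting, its count does not show whether members moved or all genes did. Leaving out each homogenate or library gave 29 to 38 in the Prestin IP against input, 29 to 33 in the Sox2 IP, 9 to 15 for their difference, 4 to 6 in the inputs at 6 h, 1 to 4 at 24 h and 4 to 6 between the times, 0 to 0 in the Prestin IPs at 6 h, 0 to 6 at 24 h and 0 to 0 between the times, and 0 to 2, 0 to 1 and 0 to 0 in the Sox2 IPs; the 4 in the inputs at 24 h came without Sox2 control replicate 4, and the 2 and the 1 without Sox2 control IP replicate 1. Controls alone gave 12 in the Sox2 IP and 1 for the difference. With a replicate block, counts were 40, 34 and 19 in the 3 enrichment comparisons (of named members it changed the calls of Kcnf1, Kcnj13, Kcnn1 and Kcne1 given above and no other), and by replicate number 3 in the inputs at 6 h (4 without the block; Kcne4, adjusted p = 0.0538, was lost), 1 at 24 h and 2 between the times, and 0 in the Prestin IPs at 6 h and at 24 h. Without a filter there were 1 in the inputs at 24 h, 0 in the Prestin IPs at 6 h and 2 at 24 h; with a pseudocount of 0.1, 1 in the Prestin IPs and 1 in the Sox2 IPs at 6 h; with median-of-ratios scaling, 0 and 2 in the Prestin IPs at 6 h and 24 h. On the reads there were 1 in the inputs at 24 h, 7 between the times, 1 in the Prestin IPs at 6 h and 3 in the Sox2 IPs at 6 h. Prestin inputs alone gave 7 at 24 h, and Sox2 inputs alone 1 at 6 h, 0 at 24 h and 1 between the times. Among values past the threshold in the main fit or in the alternative, signs turned for Kcnj10 in the Prestin IP against input (-0.65 with median-of-ratios scaling, -0.66 on the reads, -0.076 in controls alone) and in the Sox2 IP (-0.058 and -0.059 in the first 2 of these), and for Kcnn2 there on the reads (-0.51). The cause of these shifts was not tested. The other values of named members were read under alternatives other than leaving out 1 library or homogenate. Of these, 608 kept their side of the threshold, 94 fell below it and 12 passed it. Values short of the threshold in both fits could still change sign. Kcna10 in the Sox2 IP against input went from 0.30 to -0.46 with median-of-ratios scaling, and Kcna7 there from 0.17 to -0.20. Few reads limit, among others, Kcnf1, Kcna7, Kcnj14, Kcna5 (median of 40 reads over all libraries) and Kcne3 (median of 2, at most 80). Kcne4 had 2 reads in Prestin control IP replicate 1 and 1 in Sox2 control IP replicate 4.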

Other observations

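Outside the family, 13 genes of potassium circulation were read with the same fits. Bsnd, the chloride channel subunit barttin, was higher than input in both pull-downs (2.35 ± 0.20 in Prestin and 1.89 ± 0.15 in Sox2). In all, 4 of 13 tested rose and 3 fell in the Prestin IP (68.5% and 7.68% of all genes), and 5 of 12 rose and 4 fell in the Sox2 IP (55.2% and 2.72%). Slc12a7, a potassium-chloride cotransporter of supporting cells, rose by 1.72 ± 0.12 in the Sox2 IP and by 0.54 ± 0.08 in the Prestin IP (but -0.52 there on the recovered reads, so no direction can be given), and the difference passed (-1.18, adjusted p = 6.88e-06).

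After noise, 3 of these 12 genes fell in the inputs at 6 h (4.71% of all genes): Gjb6 by 0.57 ± 0.07 (adjusted p = 2.14e-04), Gjb2 by 0.42 ± 0.08 (0.00429) and Bsnd by 0.76 ± 0.18 (0.0185). Gjb2 and Gjb6 encode the connexins that join cochlear supporting cells and fibrocytes. From 6 h to 24 h Gjb2 rose by 0.82 ± 0.08, Gjb6 by 0.36 ± 0.07 and Bsnd by 0.59 ± 0.17, and Atp1b1 fell by 0.16 ± 0.05.

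Kcnn4, the intermediate-conductance channel of blood and immune cells, held 6.00, 4.33 and 4.61 TPM in Prestin control inputs, 9.35, 8.89 and 7.22 at 6 h and 11.0, 9.96 and 9.94 at 24 h, without overlap with controls. Macrophage markers of these inputs summed to 152 to 173, 137 to 179 and 387 to 414 TPM. Over both strains it did not pass at 24 h (0.78, adjusted p = 0.0784).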
